A study of Mus musculus with 23 samples.

Results

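Skeletal muscle tissue was compared with cultured myoblasts, the proliferating precursor cells of muscle, by their DNA methylation. The comparison used 6 of the 23 libraries of the series and every restriction fragment under 2000 bp on chromosomes 1 to 19, which are 49684 of the 173430 fragments in the deposited count table. Muscle gave 3 libraries of whole tissue from male mice, muscle 1 and muscle 2 from the mixed background 129Sv/C57BL/6J and muscle 3 from C57BL/6J. Myoblasts gave 3 libraries from male C57BL/6J mice, namely myoblast 1 from culture 21, myoblast 2 from culture 27 and myoblast 3 from culture 26, all in growth medium at passage 8 to 10. The labels name no transgene or treatment for either group, and they do not say whether the tissue of a library came from a single animal. Whole muscle holds vessels, nerve, fat, connective tissue and blood beside its fibres. More reads of a fragment in muscle can therefore come from more methylation in fibre nuclei or from another mix of cells, and these cannot be told apart in bulk DNA. The libraries hold DNA and not RNA, so the tissue and cell labels were not checked against expressed markers.

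AIMS-seq, the amplification of inter-methylated sites followed by sequencing, reads methylation at the sequence CCCGGG. Digestion with SmaI removes the sites that lack methylation by a blunt cut. The methylated sites that remain are opened by XmaI, whose overhangs take the adaptors for PCR. A read therefore comes from a fragment with methylation at both of its end sites, and a count of reads is a relative measure, not a percentage of methylated molecules. In mammalian tissues CpG islands, the CpG-rich stretches at many promoters, are mostly unmethylated, while gene bodies and transposable elements are mostly methylated. In the muscle lineage Pax3 and Pax7 mark precursor cells, Myf5 and Myod1 commit them, and genes of the sarcomere, the contractile unit, are turned on as fibres form.

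The 6 fragments printed here carry the differences described for muscle genes and for the largest differences. Each is the reference sequence of mm9, plus strand, and the capitals mark the CCCGGG sites at its ends, whose methylation a read reports. All 6 hold no further CCCGGG inside.
Eno3 promoter island, chr11:70468999-70469232, higher in muscle: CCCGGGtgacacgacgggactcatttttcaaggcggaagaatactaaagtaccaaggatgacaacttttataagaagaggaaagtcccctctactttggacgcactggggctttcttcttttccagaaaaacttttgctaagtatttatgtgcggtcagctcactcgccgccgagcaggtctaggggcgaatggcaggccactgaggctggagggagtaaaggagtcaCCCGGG
Pax7 promoter island, chr4:139388425-139388509, higher in muscle: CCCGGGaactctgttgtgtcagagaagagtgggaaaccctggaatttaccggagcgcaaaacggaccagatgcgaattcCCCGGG
Ldb3 intronic island, chr14:35361975-35362119, higher in muscle: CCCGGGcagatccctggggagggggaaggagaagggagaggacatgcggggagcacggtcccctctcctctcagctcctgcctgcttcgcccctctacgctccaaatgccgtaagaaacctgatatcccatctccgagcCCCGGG
Myf5 coding exon, chr10:106921113-106921347, higher in muscle: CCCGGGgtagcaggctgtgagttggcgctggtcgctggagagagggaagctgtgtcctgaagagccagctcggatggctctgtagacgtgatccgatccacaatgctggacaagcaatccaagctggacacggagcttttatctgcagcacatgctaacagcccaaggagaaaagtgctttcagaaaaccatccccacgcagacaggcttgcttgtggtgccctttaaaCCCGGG
Cacng1 promoter, chr11:107579668-107579922, lower in muscle: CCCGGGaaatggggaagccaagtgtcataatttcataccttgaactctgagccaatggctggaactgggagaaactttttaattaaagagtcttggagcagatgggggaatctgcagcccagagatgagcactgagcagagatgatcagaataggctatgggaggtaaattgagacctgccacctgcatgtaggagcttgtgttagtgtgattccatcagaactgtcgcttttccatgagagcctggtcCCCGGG
Mov10l1 coding exon, chr15:88835635-88835828, lower in muscle: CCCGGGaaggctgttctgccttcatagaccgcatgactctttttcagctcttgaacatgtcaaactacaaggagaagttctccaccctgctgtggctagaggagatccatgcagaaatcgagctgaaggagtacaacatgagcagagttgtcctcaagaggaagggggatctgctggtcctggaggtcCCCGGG
The 3 island fragments hold 11, 6 and 8 CG pairs for Eno3, Pax7 and Ldb3. The Myf5 exon holds 9, and the fragments that were lower in muscle hold 3 at Cacng1 and 4 at Mov10l1. The printed runs differ in length, from 85 bp at Pax7 to 255 bp at Cacng1, so these counts are not densities. Over all fragments called, the median density was 1.47 CpG per 100 bp in those higher in muscle and 1.36 in those lower. In all tested fragments it was 1.42.

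Sequencing depth was similar, with 7184895 to 10483777 reads on the fragments under study per library. The libraries were not equally close within groups. Muscle 1 and muscle 2 had a Spearman correlation of 0.961 across tested fragments, and muscle 3 was closer to the myoblasts than the other muscle libraries were, up to 0.868 with myoblast 2. The lowest correlation, 0.528, was between muscle 2 and myoblast 1. These are descriptions across fragments, which are not independent replicates. The first principal component held 68.4% of the variance and separated the groups.

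Of the fragments, 23509 had no read in any of the 6 libraries and 15055 (30.3%) had enough reads to be tested. A quasi-likelihood test in edgeR with Benjamini-Hochberg adjustment called 4035 of them at an adjusted p under 0.05, which is 26.8% of those tested. There were 2085 fragments higher in muscle (13.8%) and 1950 lower (13%), and the median log2 fold change over all tested fragments was −0.04. In 25.4% of the tested fragments every muscle library lay above every myoblast library, and in 24.5% every one lay below. The median log2 fold change was 2.71 among the higher and −2.38 among the lower calls. Muscle 3, which shares its strain with the myoblasts, lay above all 3 myoblast libraries in 2077 of the 2085 higher fragments and below them in 1934 of the 1950 lower ones. It was part of the test that made these calls, so this is a description and no check of strain. With library totals in place of TMM scaling, the median of all fragments moved to −0.37 and the calls were 986 higher and 1933 lower. Of the calls 51.7% were higher with TMM, 33.8% with library totals, and 62.4% with a TMM fit over fragments of all lengths and chromosomes.

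The calls rest on 3 libraries against 3 and on each of several of them. Without muscle 1, without muscle 2 or without myoblast 3, edgeR called 0 fragments at the adjusted threshold, with 4305, 4719 and 5665 fragments at an unadjusted p under 0.05 and smallest adjusted p-values of 0.0817, 0.0586 and 0.0526, and DESeq2 called 3133, 3335 and 5041. Without myoblast 2 edgeR called 2008, and without muscle 3, the C57BL/6J library, 3813. Muscle 3 alone against the myoblasts, all C57BL/6J, gave 0 edgeR calls (1295 at an unadjusted p under 0.05) and 23 DESeq2 calls. Every edgeR call given below is thus lost when muscle 1, muscle 2 or myoblast 3 is left out. Muscle 1 and muscle 2 differ from the myoblasts in strain as well as tissue, and in them strain and tissue cannot be told apart.

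Fragment length moved with the groups. Fragments of 1000 to 1999 bp held 6.45, 6.36 and 8.23% of the reads in muscle 1, 2 and 3, against 10.4, 14.5 and 10.9% in myoblasts 1, 2 and 3, so the groups did not overlap. Lower calls were long, with a median length of 1206 bp, against 495 bp for higher calls and 692 bp for all tested fragments. In the class of 1500 to 1999 bp 10 fragments were higher in muscle and 649 were lower of 2292 tested, while in the class of 500 to 749 bp 571 were higher and 71 lower of 2156. Scaling the libraries separately within each decile of fragment length left 1164 higher (7.73%) and 1624 lower (10.8%) calls. Counts from this length-scaled fit are given beside those of each list and of several genomic classes. Other classes are given with TMM scaling alone. Of the 55 fragments called among the 58 chosen by the rule for named fragments, 12 lost their call in it, among them those of Ckm, Ryr1, Hoxa2, Hoxa9, Dmrtb1, Nos1 and the 902 bp fragment of Musk described later. Other list members are given with TMM scaling alone. The part of library preparation in the length difference was not tested.

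**Figure D1:**
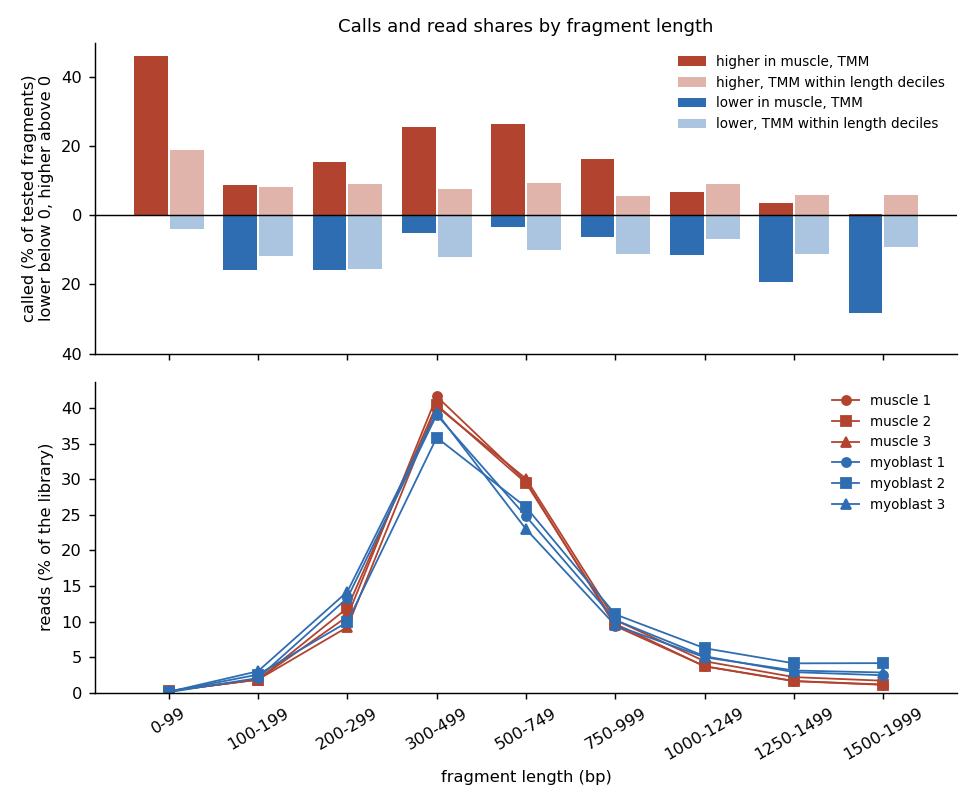
Top, share of tested fragments called higher (above 0) or lower (below 0) in muscle in each class of fragment length, for TMM scaling (dark) and for TMM within length deciles (pale); bottom, share of each library's reads by length class, with 3 muscle and 3 myoblast libraries. Lower calls gather at 1500 to 1999 bp with TMM scaling, where 649 of 2292 fragments were lower and 10 higher.

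CpG islands carried more reads in muscle. Island fragments took 3.42, 4.72 and 1.58% of the reads in muscle 1, 2 and 3, against 0.298, 1.40 and 1.23% in myoblasts 1, 2 and 3. The mean was 3.24 ± 1.58% in muscle and 0.975 ± 0.592% in myoblasts (SD, n = 3 each), and the groups did not overlap, although muscle 3 lay close to myoblast 2. Promoter islands took 2.26 ± 1.11% in muscle and 0.604 ± 0.430% in myoblasts. An exact permutation test over libraries (2-sided) gave p = 0.1 for each, the smallest p that 3 against 3 libraries allow. Counting error is small beside this spread, since exact 95% binomial intervals of these shares were at most 0.061 percentage points wide.

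**Figure D2:**
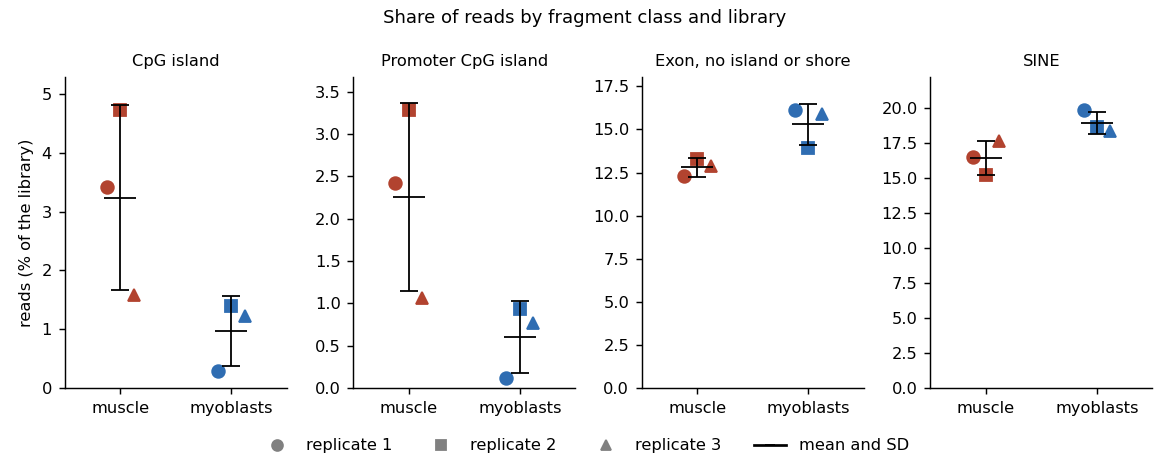
Share of each library's reads on fragments under 2000 bp that fell on 4 classes of fragments, with muscle left and myoblasts right; points are libraries and bars are the mean with SD (n = 3). Island shares were higher in muscle (1.58 to 4.72%) than in myoblasts (0.298 to 1.40%), and shares of exons outside islands and of SINE repeats were lower.

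Among the island fragments called, most were higher in muscle. Of 14732 island fragments 689 passed the filter on low counts, and of these 204 were higher in muscle (29.6%) and 12 lower (1.74%), with a median log2 fold change of 2.11. Promoter islands gave 157 higher and 2 lower of 508, with a median of 2.18, and 58 higher and 1 lower in the length-scaled fit. Shores, the flanks of islands, gave 279 higher and 82 lower of 1155, with a median of 1.20, and 134 higher and 70 lower in the length-scaled fit. Within fragments of 500 to 999 bp the median was 2.29 for islands (161 tested) and 0.38 outside islands and shores (3447 tested), and within 200 to 499 bp it was 2.33 (297 tested) and 0.10 (3066 tested). The length-scaled fit called 78 island fragments higher and 8 lower, with a median of 1.82. In muscle 3 alone against the myoblasts the island median was 0.87, and with all groups of the series in the fit 7 island fragments were higher and 4 lower. The island fragments that did not pass the filter had few or no reads in these libraries, so nothing is said of them. A fragment with reads in muscle alone passes it and can then be called in that direction only. Likewise a fragment with reads in myoblasts alone can be called lower only.

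The number of island fragments detected differed less than their reads. After thinning every library to the depth of the smallest, 798, 804 and 717 island fragments had 5 or more reads in muscle 1, 2 and 3, against 291, 806 and 746 in myoblasts 1, 2 and 3 (exact permutation p = 0.7). Myoblast 1 stood apart with the lowest number, and the other 5 libraries were close to each other. Over all fragments the thinned count was 15037 ± 632 in muscle and 15707 ± 1547 in myoblasts (SD, n = 3 each; exact permutation p = 0.5).

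Exons outside islands and several classes of transposable elements had more lower than higher calls. Exon fragments outside islands and shores gave 128 higher and 346 lower of 1703, with a median log2 fold change of −0.58, and their share of reads was 12.8 ± 0.537% in muscle and 15.3 ± 1.19% in myoblasts (SD, n = 3 each; exact permutation p = 0.1). By length, such exons gave 70 higher and 51 lower of 547 at 500 to 999 bp and 11 higher and 217 lower of 721 at 1000 to 1999 bp, and the length-scaled fit called 80 higher and 298 lower of all 1703. Introns were near the share of all tested fragments, with 584 higher (13.4%) and 645 lower (14.8%) of 4359 and a median of −0.09, and 340 higher and 568 lower in the length-scaled fit. Long terminal repeats, the remains of retroviruses, gave 176 higher and 398 lower of 2162, and 108 higher and 323 lower in the length-scaled fit. Within them the ERV1 class had 20 higher and 74 lower of 276 (median −0.90), and ERVK elements other than IAP had 56 higher and 211 lower of 1038 (median −0.71). In the length-scaled fit these were 15 higher and 60 lower for ERV1 and 30 higher and 177 lower for the ERVK elements. ERVL elements had 22 higher and 14 lower of 114 (median −0.13). Young L1 elements of the L1Md type gave 50 higher and 203 lower of 1698 with a median of −0.57. In the length-scaled fit 55 of them were higher and 116 lower, with a median of −0.22. Older L1 elements gave 72 in each direction of 629. IAP retroviruses, which are known to stay methylated in most mouse cells, gave 14 higher and 33 lower of 281. SINE repeats had 215 higher and 364 lower of 2191, and 124 higher and 317 lower in the length-scaled fit. The old MIR elements among them had 31 higher and 17 lower of 182 (median 0.40). The read share of SINE repeats was 16.4 ± 1.22% in muscle and 18.9 ± 0.783% in myoblasts (exact permutation p = 0.1). Shares of reads on LINE and LTR fragments overlapped between the groups, with means of 7.57% in muscle and 7.93% in myoblasts for LINE and of 12.6% in muscle and 15.1% in myoblasts for LTR. Many repeats are near copies of each other, and of the 15055 tested fragments 12157 have first 36 bases at both ends that occur at no other fragment end, so counts of single repeat fragments are uncertain.

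**Figure D3:**
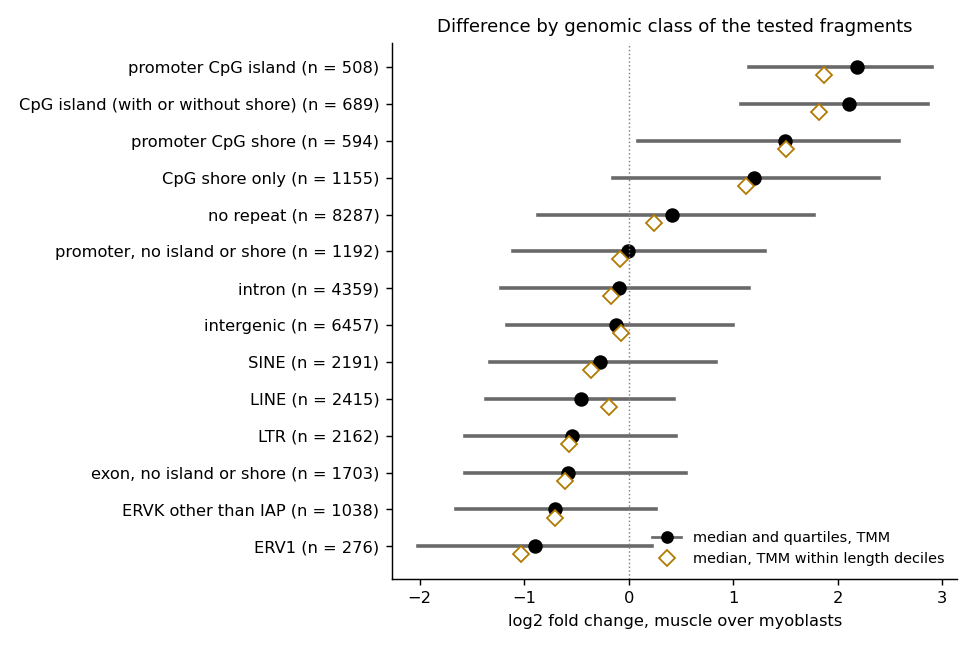
Median log2 fold change of muscle over myoblasts by genomic class of the tested fragments (filled circles, with bars from the first to the third quartile) and the median after TMM scaling within length deciles (open diamonds). Island and shore classes lie above 0, up to 2.18 for promoter islands, and exons, LTR and LINE classes below, down to −0.90 for ERV1.

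Genes that specify muscle cells were mostly higher in muscle at the fragments called. Of 18 tested fragments at myogenic regulators 6 were higher (33.3%) and 1 was lower (5.56%), with a median log2 fold change of 1.17. Most of the 18 were not called, and of all tested fragments 13.8% were higher and 13% lower. At these regulators the length-scaled fit called 5 higher and 1 lower. At Pax7, a transcription factor of satellite cells, the 79 bp promoter island fragment printed above read 9.23, 14.2 and 3.67 CPM (read counts scaled for library depth with TMM factors) in muscle 1, 2 and 3, against 0, 0.418 and 0.496 CPM in myoblasts 1, 2 and 3. Every muscle library lay above every myoblast library, and the log2 fold change was 4.84 ± 1.00 (SE; adjusted p = 0.0149). It was 3.33 in the length-scaled fit (adjusted p = 0.041). The fragment had 0, 5 and 4 reads in myoblasts 1, 2 and 3. It thus passed the filter on low counts through muscle alone, so its direction was fixed by the filter. A further 2 Pax7 fragments were higher, an intronic island fragment (77.6 CPM in muscle and 6.78 CPM in myoblasts) and an exonic shore fragment (92.0 CPM in muscle and 8.99 CPM in myoblasts). The other 3 tested Pax7 fragments were not called, among them a 296 bp promoter island fragment with 177 CPM in muscle and 24.8 CPM in myoblasts (adjusted p = 0.0515).

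Pax3, the factor of embryonic muscle precursors, was higher at a 725 bp promoter fragment on an island edge (chr1:78193784-78194508). It read 155, 218 and 41.9 CPM in muscle 1, 2 and 3, against 2.91, 24.2 and 8.67 CPM in myoblasts 1, 2 and 3, a log2 fold change of 3.53 ± 0.87 (SE; adjusted p = 0.0214). The 2 other Pax3 fragments were not called (log2 fold changes 0.90 and −0.34). Myf5, which commits precursors to the muscle lineage, was higher at the coding exon printed above. That fragment read 34.9, 56.7 and 22.3 CPM in muscle 1, 2 and 3, against 0.831, 7.61 and 6.07 CPM in myoblasts 1, 2 and 3 (log2 fold change 2.97 ± 0.78, SE; adjusted p = 0.0254). The groups did not overlap at either gene. Lbx1, a homeobox gene of migrating limb muscle precursors, was higher at a shore exon (12.1 CPM in muscle and 2.45 CPM in myoblasts). Mef2d, a cofactor of the myogenic factors, was the lower call, at an 819 bp exon with 4.82 CPM in muscle and 25.3 CPM in myoblasts. Its relative Mef2c was not called at its promoter shore (log2 fold change 1.21, adjusted p = 0.115). Myod1 and Myog had no tested fragment.

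**Figure D4:**
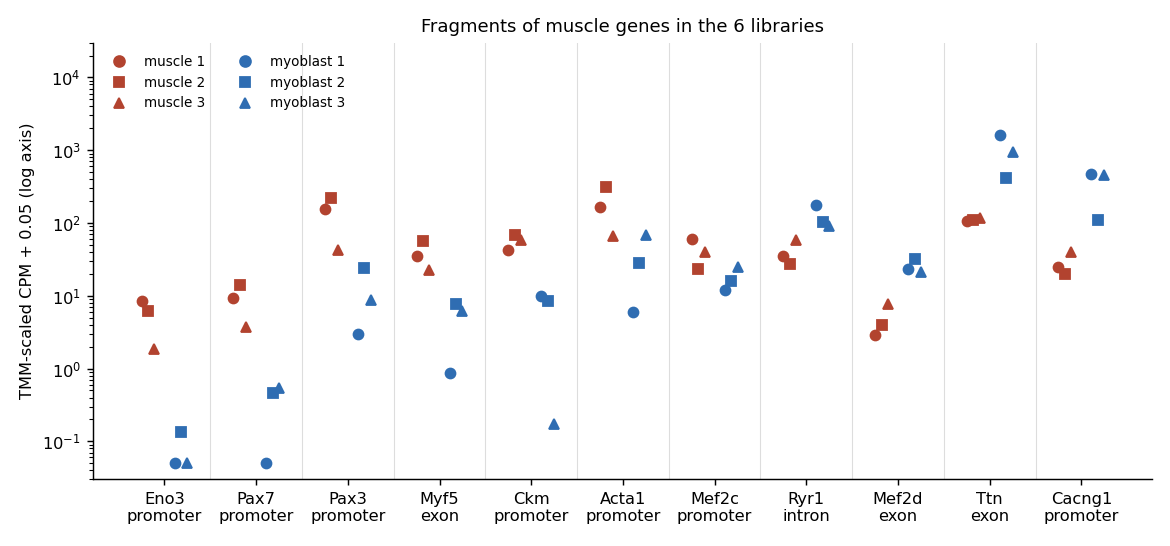
TMM-scaled CPM plus 0.05 on a log axis for fragments of 11 muscle genes in the 3 muscle and 3 myoblast libraries; a point at 0.05 stands for no read. Muscle points lie above all myoblast points for Eno3, Pax7, Pax3, Myf5 and Ckm and below them for Ryr1, Mef2d, Ttn and Cacng1, while the groups overlap for Acta1 and Mef2c.

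Genes of the sarcomere and of muscle energy supply were called in both directions. Of 32 tested fragments 10 were higher (31.2%) and 2 lower (6.25%), beside 13.8% higher and 13% lower of all tested fragments. The median log2 fold change of the list was 0.51, and the length-scaled fit called 6 higher and 4 lower. The higher calls include 6 island fragments, the only island fragments of the list with enough reads to be tested. Some of them had almost no reads in myoblasts and passed the filter on low counts through muscle alone, so their direction was fixed by the filter. They belong in pairs to Eno3, the muscle form of the glycolytic enzyme enolase, to Tpm1, a tropomyosin of the thin filament, and to Ldb3, a protein of the Z-disc. The Eno3 promoter island fragment printed above read 8.32, 6.04 and 1.78 CPM in muscle 1, 2 and 3, against 0, 0.0836 and 0 CPM in myoblasts 1, 2 and 3. This stands for 133 reads in muscle and 1 read in myoblasts, a scaled ratio of 153 with an exact 95% interval of 27 to 6081 that covers counting error only. The same fragment was also assigned to Pfn1 and Gm12319, so it is not particular to Eno3. The neighbouring Eno3 island fragment of 272 bp had 4.88 CPM in muscle and 0.193 CPM in myoblasts, and a shore fragment of 839 bp at the same gene had 104 CPM in muscle and 12.2 CPM in myoblasts. At Ldb3 the printed 139 bp fragment had 29.8 CPM in muscle and 0.726 CPM in myoblasts, and its 108 bp neighbour had 32.5 CPM in muscle and 0.810 CPM in myoblasts. At Tpm1 a 275 bp promoter fragment had 304 CPM in muscle and 45.0 CPM in myoblasts. Neighbouring fragments share the site between them, so such pairs are not independent.

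Ckm, the muscle creatine kinase, was higher at an 852 bp promoter fragment outside islands (chr7:19996443-19997294). It read 41.9, 67.9 and 58.6 CPM in muscle 1, 2 and 3, against 9.87, 8.36 and 0.124 CPM in myoblasts 1, 2 and 3, a log2 fold change of 3.19 ± 1.00 (SE; adjusted p = 0.0411), which was 2.80 in the length-scaled fit and no longer called there (adjusted p = 0.0702). Myh7, the slow myosin heavy chain, was higher at its promoter (147 CPM in muscle and 48.6 CPM in myoblasts), as was Mybpc1, slow myosin-binding protein C, in an intron (104 CPM in muscle and 32.5 CPM in myoblasts). The skeletal actin gene Acta1 was not called at its promoter shore. Its fragment read 164, 310 and 65.7 CPM in muscle 1, 2 and 3, against 6.02, 28.3 and 69.3 CPM in myoblasts 1, 2 and 3, so muscle 3 overlapped myoblast 3 (adjusted p = 0.0625).

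Titin went the other way. Ttn, the giant spring protein of the sarcomere, was lower in muscle at a 303 bp exon fragment (chr2:76589158-76589460), with 105, 109 and 117 CPM in muscle 1, 2 and 3, against 1640, 412 and 944 CPM in myoblasts 1, 2 and 3. The muscle libraries were nearly level and the myoblast libraries spread widely, all above muscle, and the log2 fold change was −3.18 ± 0.54 (SE; adjusted p = 0.0121). Nebulin, the ruler protein of the thin filament, was lower at a Neb promoter fragment (2.73 CPM in muscle and 11.6 CPM in myoblasts). The other 20 tested fragments of the list were not called.

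Genes of calcium handling and excitation were called lower more often than higher. Of 14 tested fragments 1 was higher (7.14%), 5 were lower (35.7%) and 8 were not called, beside 13.8% higher and 13% lower of all tested fragments. The median log2 fold change of the list was −0.81, and none of the 14 lies on an island or shore. Cacng1, the gamma subunit of the voltage sensor that couples excitation to contraction, was lower at the promoter fragment printed above. It read 24.6, 19.6 and 39.7 CPM in muscle 1, 2 and 3, against 470, 111 and 459 CPM in myoblasts 1, 2 and 3, a log2 fold change of −3.63 ± 0.65 (SE; adjusted p = 0.0121). The groups did not overlap, and this was the lower call of the list that the length-scaled fit kept (log2 fold change −4.0, adjusted p = 0.0211), out of 1 lower and 0 higher there. Ryr1, the calcium release channel of the sarcoplasmic reticulum, was lower in an intron, with 35.3, 27.6 and 58.1 CPM in muscle 1, 2 and 3, against 174, 102 and 91.3 CPM in myoblasts 1, 2 and 3 (adjusted p = 0.0457). Scn4a, the sodium channel of the fibre membrane, had 2.95 CPM in muscle and 14.9 CPM in myoblasts in a 1562 bp intron fragment. Stac3, an adaptor of the voltage sensor, had 12.3 CPM in muscle and 42.1 CPM in myoblasts at a 1615 bp promoter fragment. Musk, the receptor kinase of the nerve-muscle synapse, was lower in a 1597 bp exon fragment (5.19 CPM in muscle and 28.9 CPM in myoblasts) and higher in the 902 bp fragment next to it (75.4 CPM in muscle and 23.6 CPM in myoblasts).

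Developmental regulators were higher in muscle at many of the fragments called. HOX genes, which set position along the body axis, gave 8 higher (50%) and 0 lower of 16 tested fragments, beside 13.8% higher and 13% lower of all tested fragments. Their median log2 fold change was 2.16, although the length-scaled fit called 1 higher and 1 lower. Hoxa9 read 80.2, 31.8 and 23.5 CPM in muscle 1, 2 and 3, against 0.935, 8.28 and 7.81 CPM in myoblasts 1, 2 and 3, at a 388 bp promoter shore. Hoxc5 had 251 CPM in muscle and 26.2 CPM in myoblasts at a promoter island edge, and Hoxa2 had 146 CPM in muscle and 36 CPM in myoblasts at a promoter outside islands. The other developmental transcription factors gave 22 higher (23.7%) and 2 lower (2.15%) of 93 with a median of 1.37, and 8 higher and 2 lower in the length-scaled fit. Prox1, a homeobox gene of lymphatic vessels that also acts in muscle, read 241, 225 and 122 CPM in muscle 1, 2 and 3, against 1.35, 21.3 and 7.56 CPM in myoblasts 1, 2 and 3, in a 563 bp exon. Both called Tbx15 fragments lie on an intronic island, with 14.2 CPM in muscle and 0.483 CPM in myoblasts at the 121 bp one. Each had too few reads in myoblasts to pass the filter on low counts through them. They passed it through muscle, so their direction was fixed by the filter. Pax6, an eye and brain regulator, had a promoter island fragment that was higher (194 CPM in muscle and 19.7 CPM in myoblasts) and an exon that was lower (37.3 CPM in muscle and 157 CPM in myoblasts). Lhx2, a forebrain and limb regulator, was not called at its promoter shore (adjusted p = 0.0719).

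Pluripotency genes gave 7 higher (50%) and 1 lower (7.14%) of 14 tested fragments (median 1.51), beside 13.8% higher and 13% lower of all tested fragments. In the length-scaled fit 3 of the list were higher and 1 lower. Dppa4, a gene of early embryonic cells, had 2 neighbouring promoter fragments that were higher. The 84 bp fragment (chr16:48284158-48284241) read 23.4, 28.2 and 10.4 CPM in muscle 1, 2 and 3, against 1.97, 1.84 and 2.23 CPM in myoblasts 1, 2 and 3, a log2 fold change of 3.35 ± 0.61 (SE; adjusted p = 0.0121). In the length-scaled fit its log2 fold change was 1.9 (adjusted p = 0.0366). The myoblast libraries were nearly level and all muscle libraries lay above them. The 528 bp fragment beside it had 605 CPM in muscle and 214 CPM in myoblasts. Lin28a and Lin28b, which block the maturation of let-7 microRNAs, were both higher, Lin28a with 9.76 CPM in muscle and 0.916 CPM in myoblasts and Lin28b with 169 CPM in muscle and 15.3 CPM in myoblasts. The Lin28a fragment had too few reads in myoblasts to pass the filter on low counts through them, so its direction was fixed by the filter. Nr5a2, an orphan nuclear receptor, had 1 intronic fragment in each direction. The lower one had 9, 5 and 13 reads in muscle 1, 2 and 3 and passed the filter through myoblasts, which fixed its direction.

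Germ line genes gave 2 higher and 2 lower of 29 (6.9% each), beside 13.8% higher and 13% lower of all tested fragments. The length-scaled fit called 1 higher and 1 lower of the list. The germ line median was −0.04, equal to that of all tested fragments. Mov10l1, a helicase of the piRNA pathway, was lower at the exon printed above, with 1.60, 1.87 and 5.65 CPM in muscle 1, 2 and 3, against 108, 25.1 and 52.9 CPM in myoblasts 1, 2 and 3 (log2 fold change −4.33 ± 0.78, SE; adjusted p = 0.0121). Dmrtb1, a testis factor, was higher at a promoter shore (227 CPM in muscle and 28.8 CPM in myoblasts). Imprinted genes, which are methylated on the allele of a single parent, gave 7 higher (22.6%) and 5 lower (16.1%) of 31, and 5 higher and 6 lower in the length-scaled fit. Airn, the antisense transcript that silences Igf2r in mouse, was lower in a 933 bp fragment of its body (13.2 CPM in muscle and 89.9 CPM in myoblasts), and Grb10, a growth inhibitor, was lower at a promoter shore (109 CPM in muscle and 469 CPM in myoblasts). Trappc9 was higher at an intron fragment (103 CPM in muscle and 11.4 CPM in myoblasts) and not called at an exon fragment (log2 fold change 0.69). Kcnq1 went both ways, with 3 intronic fragments higher and a 1889 bp exon fragment lower (0.4 CPM in muscle and 2.46 CPM in myoblasts). That exon fragment had few reads in muscle and passed the filter through myoblasts, which fixed its direction. Protocadherin clusters had 3 tested fragments, with log2 fold changes of −0.84, 1.72 and −0.24 and adjusted p-values of 0.0646 or more.

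Genes of the DNA methylation machinery gave 1 higher (12.5%) and 2 lower (25%) of 8 tested fragments. Of all tested fragments 13.8% were higher and 13% lower. Dnmt3b, a de novo methyltransferase, was higher at a 196 bp promoter shore with 31.5, 38.8 and 11.7 CPM in muscle 1, 2 and 3, against 1.45, 7.86 and 6.57 CPM in myoblasts 1, 2 and 3 (adjusted p = 0.0403). That fragment also overlaps an exon of 7530422B04Rik. Tet1, which oxidises methylcytosine, was lower in a 1362 bp intron fragment (5.66 CPM in muscle and 34.2 CPM in myoblasts), and Dnmt3a, the other de novo enzyme, in a 198 bp intron fragment (5.79 CPM in muscle and 22.6 CPM in myoblasts). The remaining 5 of 8 tested fragments on this list were not called, and the length-scaled fit called 1 higher and 2 lower. Cell cycle genes gave 4 higher (16.7%) and 6 lower (25%) of 24, and 1 higher and 2 lower in the length-scaled fit. Ccnd3, the cyclin D of differentiating muscle, was lower in a 1405 bp intron fragment, with 3.19, 2.01 and 6.54 CPM in muscle 1, 2 and 3, against 43.7, 40.3 and 41.0 CPM in myoblasts 1, 2 and 3. E2f3, an S-phase regulator, was higher at its promoter island edge (164 CPM in muscle and 17.1 CPM in myoblasts) and lower at an exon (420 CPM in muscle and 1130 CPM in myoblasts).

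Genes of the Wnt, Notch, BMP and hedgehog pathways gave 10 higher (18.2%) and 6 lower (10.9%) of 55, beside 13.8% higher and 13% lower of all tested fragments. The length-scaled fit called 5 higher and 6 lower. Gli2, a hedgehog effector, was higher at 2 intronic fragments, 1 of which read 514, 729 and 261 CPM in muscle 1, 2 and 3, against 19, 70.1 and 63.2 CPM in myoblasts 1, 2 and 3. Shh, the hedgehog ligand, had 319 CPM in muscle and 29.7 CPM in myoblasts at a promoter shore. Tcf7, a Wnt effector, was lower in a 284 bp intron fragment, with 72.4, 70.9 and 114 CPM in muscle 1, 2 and 3, against 846, 233 and 518 CPM in myoblasts 1, 2 and 3.

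Genes of the other cells that whole muscle holds were called in both directions, several at shares near the 13.8% higher and 13% lower of all tested fragments. Blood genes gave 5 higher and 5 lower of 20, endothelial genes 5 and 2 of 34, smooth muscle and pericyte genes 1 and 2 of 10, fibroblast and matrix genes 4 and 6 of 34, adipocyte genes 7 and 2 of 32, and Schwann cell genes 3 and 0 of 9, higher first in each pair. Endothelial genes were thus higher at 14.7% of their tested fragments, and fibroblast genes higher at 11.8% and lower at 17.6%. In the length-scaled fit the calls were 2 and 2 for blood, 3 and 2 for endothelium, 0 and 4 for smooth muscle, 3 and 8 for fibroblasts, 2 and 1 for adipocytes and 1 and 0 for Schwann cells, again higher first. The summed level of the tested blood fragments was 2423 to 4178 CPM in muscle and 974 to 1902 CPM in myoblasts. That of the adipocyte fragments was 1866 to 3683 CPM in muscle and 1158 to 1302 CPM in myoblasts, so neither overlapped. A single Itgax exon fragment held much of the blood sum, with 1600 CPM in muscle and 387 CPM in myoblasts. Such a separation was not particular to these lists, since pluripotency sums did not overlap either (1428 to 2539 CPM in muscle and 627 to 985 CPM in myoblasts). Endothelial sums overlapped (2337 to 3096 CPM in muscle and 1847 to 3124 CPM in myoblasts), as did fibroblast sums (2886 to 3990 CPM in muscle and 2441 to 3858 CPM in myoblasts), smooth muscle sums (640 to 1225 CPM in muscle and 732 to 1211 CPM in myoblasts) and Schwann cell sums (555 to 1402 CPM in muscle and 358 to 661 CPM in myoblasts). No tested fragment of these lists was without reads in either group. The part of these cells in the muscle values was not tested.

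Among single genes of these lists, Plin1, the coat protein of fat droplets, had an exon fragment with 656, 889 and 272 CPM in muscle 1, 2 and 3, against 15.4, 80.9 and 74.6 CPM in myoblasts 1, 2 and 3. Runx3, a lymphocyte and nerve regulator, read 490, 582 and 379 CPM in muscle 1, 2 and 3, against 98.2, 87.5 and 71.6 CPM in myoblasts 1, 2 and 3, in a 543 bp intron fragment. Another Runx3 intron fragment was also higher, while a 1605 bp exon fragment was lower (5.33 CPM in muscle and 25.2 CPM in myoblasts). Emcn, an endothelial surface protein, was higher at an exon fragment (161 CPM in muscle and 20.4 CPM in myoblasts) and not called at an intron fragment. Vwf, the clotting factor of the same cells, was lower at a 1096 bp exon fragment (7.74 CPM in muscle and 29.0 CPM in myoblasts). Its other tested fragments were not called and leaned both ways. A 522 bp exon had 227 CPM in muscle and 110 CPM in myoblasts, and a 989 bp intron fragment had 52.6 CPM in muscle and 114 CPM in myoblasts. Col6a3, a matrix collagen, was lower in a 1774 bp intron fragment (3.22 CPM in muscle and 35.7 CPM in myoblasts), as was the T-cell kinase Lck at a 1754 bp promoter fragment (4.06 CPM in muscle and 38.6 CPM in myoblasts). Neural genes gave 14 higher (20.3%) and 4 lower (5.8%) of 69, and 9 higher and 3 lower in the length-scaled fit. They were led by Shank2, a synaptic scaffold, with 307 CPM in muscle and 20.2 CPM in myoblasts. Genes of endoderm and epithelium gave 2 higher (14.3%) and 1 lower (7.14%) of 14, and 1 higher and 2 lower in the length-scaled fit. Of all tested fragments 13.8% were higher and 13% lower, so the higher share of endoderm and epithelium was near that of all.

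Large differences were found outside these lists as well, and the Eno3 island fragment of the sarcomere list had a larger fitted log2 fold change (6.86) than those given next. Tom1l1, an endosomal adaptor, read 154, 160 and 31.1 CPM in muscle 1, 2 and 3, against 0.415, 2.59 and 4.46 CPM in myoblasts 1, 2 and 3, at a 296 bp promoter island edge. Its log2 fold change was 5.53 ± 0.97 (SE; adjusted p = 0.0121). Slc16a1, a lactate transporter, had 42.3 CPM in muscle and 0.957 CPM in myoblasts at a promoter shore. Nos1, the nitric oxide synthase found in muscle fibres and neurons, had 125 CPM in muscle and 3.45 CPM in myoblasts in an intron, and its call was lost in the length-scaled fit (adjusted p = 0.0547). Casz1, a zinc finger factor, had 237 CPM in muscle and 6.58 CPM in myoblasts, and Prtn3, a neutrophil protease, had 91.1 CPM in muscle and 2.68 CPM in myoblasts. On the other side Ctbp2, a corepressor, read 1.71, 2.16 and 3.57 CPM in muscle 1, 2 and 3, against 240, 41.2 and 90.8 CPM in myoblasts 1, 2 and 3, in a 252 bp intron fragment (log2 fold change −5.63 ± 0.80, SE; adjusted p = 0.0121). That fragment was also assigned to Fgfr2. Pomp, which assists proteasome assembly, had 2.23 CPM in muscle and 51.1 CPM in myoblasts, and Mtap7, a microtubule-binding protein, had 0.998 CPM in muscle and 19.7 CPM in myoblasts. The Mtap7 fragment had 7, 7 and 12 reads in muscle 1, 2 and 3. It passed the filter on low counts through myoblasts, so its direction was fixed by the filter. Strong lower calls at Fam19a1, Mup2, Dcc, Ncam1 and 4930412B13Rik begin or end with 36 bases that other fragment ends share, and are uncertain for that reason.

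The same fragments were then read in the other libraries of the series, which played no part in choosing them. Over the 2085 higher fragments the median level was 125, 142 and 64.0 CPM in muscle 1, 2 and 3, against 5.70, 22.6 and 16.7 CPM in myoblasts 1, 2 and 3. Satellite cells that were never cultured read 21.6 CPM, and those taken 3 days after cardiotoxin injury read 23.2 CPM. Muscle and myoblast levels in this set were fixed by its choice, so that other libraries lie below muscle in it is no result. Embryonic stem cells had medians of 24.4 to 37.9 CPM. Myotubes, the multinucleate fibres formed in culture, did not move as a group. Those of culture 27 read 74.3, 49.9 and 50.1 CPM after 1, 2 and 4 days of differentiation, while those of culture 21 read 4.95 to 6.87 CPM and those of culture 26 read 12.0 to 16.4 CPM. Over the 1950 lower fragments the medians were 3.92 to 7.48 CPM in muscle, 24.4 to 31.4 CPM in myoblasts, and 10.3, 23.7 and 13.4 CPM after 1, 2 and 4 days in culture 27.

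**Figure D5:**
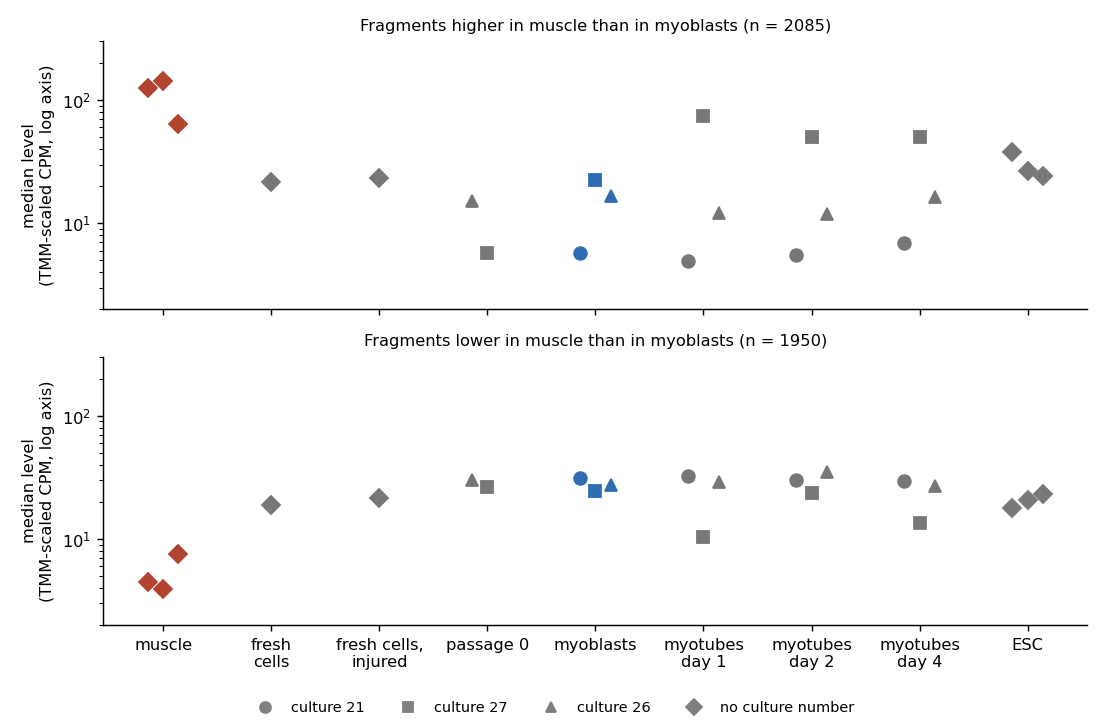
Median level (TMM-scaled CPM, log axis) of the fragments called higher (top) and lower (bottom) in muscle, in every library of the series; marker shape gives the culture number. In the higher set, the 3 myotube libraries of culture 27 (49.9 to 74.3 CPM) lie above the other cultured cells, and the day 1 library lies within the muscle range (64.0 to 142 CPM).

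Island reads followed the same libraries. In culture 27 islands took 4.27, 1.14 and 4.40% of the reads after 1, 2 and 4 days of differentiation, so that 2 of the 3 values lay within the muscle range, while the other 6 myotube libraries had 0.239 to 1.09%. Islands took 1.21% in satellite cells that were never cultured and 0.394 to 0.670% in embryonic stem cells. At single loci the order differed. The Pax7 island fragment read 7.41 CPM in the day 1 library of culture 27, on a scale shared by all libraries on which muscle read 3.95 to 15.5 CPM, and 0 to 1.84 CPM in the other myotube libraries. The 84 bp Dppa4 fragment had 11.2 to 30.7 CPM in muscle on that scale and at most 5.68 CPM in any other library. The Ttn exon had 113 to 127 CPM in muscle and at least 245 CPM in every other library, and the Cacng1 promoter had 21.3 to 42.8 CPM in muscle and at least 106 CPM elsewhere. The Myf5 exon did not share this pattern, with 24.0 to 61.7 CPM in muscle and 44.6 to 68.0 CPM in embryonic stem cells.

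The authors' deposited table for this pair of groups, made with DESeq on the same libraries, held 2743 fragments higher and 3887 lower in muscle at an adjusted p under 0.05 with pooled dispersion, of 25966 listed (10.6% higher and 15% lower). Of the edgeR calls 1931 higher (92.6% of the edgeR set and 70.4% of that in the authors' deposited table) and 1846 lower (94.7% and 47.5%) were in both. Since both use the same reads, this overlap is no independent support.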

How the data were processed

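Reads came from an Illumina GA2 and were mapped to mm9, per the labels' protocols. Bowtie 0.11.3 and DESeq (no version) are listed per the submitters' processing notes. The authors deposited raw read counts per fragment and library, which were used as they stand, for muscle and myoblasts as the main data and for the other libraries as a description. The authors' deposited table of this comparison holds DESeq p-values, raw and adjusted, in 2 forms that the file headers call pooled and per condition. Its log2 values are log2 of the ratio of the group means after adding 1 to each, as recomputed from the deposited means. How reads that map to several places were counted is not given in the sources used here.

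Muscle and myoblast counts entered a quasi-likelihood test in edgeR 4.0.16 under R 4.3.3, with TMM factors and filterByExpr at 10 counts. It was 2-sided, with Benjamini-Hochberg adjustment over all fragments tested and a threshold of 0.05. DESeq2 1.42.0 served as an alternative. Shares and numbers of detected fragments were compared over libraries by exact permutation tests in Python 3.11.15. CPM values are TMM-scaled. Levels across all libraries use TMM over all of them, with the CGR8 stem cell library and its technical replicate summed. Nothing in the labels says whether replicates of muscle are separate animals, so p-values measure the spread between these libraries. Reads carry no molecular identifiers, so intervals cover counting error only. The edgeR steps were tested on simulated data.

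Gene models were GENCODE M1 (mm9). Overlap with a gene body or its 2000 bp upstream assigned a fragment to that gene, and promoters span 2000 bp before and 500 bp after each start. Island, shore and repeat classes were taken as deposited. Sequences are from the mm9 genome and each printed run adds 3 bases at each end of a fragment to complete its CCCGGG sites.

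The fragments, lists, contexts and tests were chosen with earlier results of these data known. The rule for named fragments takes, for each of 16 genes, its tested fragment of smallest p (13 genes had one), the called fragment with the smallest p per list and direction, the 5 largest fold changes per direction among called fragments of protein-coding genes whose libraries do not overlap and whose level is at or above the median, and the 3 smallest p-values per direction. This gave 58 fragments, 55 of them called (30 higher and 25 lower). Further list members in the text were chosen after their values were seen. Alternatives are listed in the closing section, and those that pair DESeq2 with a left-out library were added after edgeR had made no call there.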

Additional observations from a re-analysis of the deposited data

How the results depend on the processing

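The count of 4035 calls (2085 higher and 1950 lower in muscle) moved most with the libraries. Leaving out 1 library at a time gave 0 to 5566 calls, 0 to 2844 of them higher and 0 to 2722 lower, with 0 without muscle 1, muscle 2 or myoblast 3. DESeq2 with 1 library left out, added after seeing the data, gave 3133 to 6196 calls, 1929 to 3434 higher and 1110 to 2762 lower. The C57BL/6J muscle library alone gave 0 calls in either direction in edgeR and 23 in DESeq2 (15 higher and 8 lower), and the lone library is assumed there to vary like the myoblasts. All groups in a single fit gave 1841 (561 and 1280), fragments of 200 to 999 bp 1339 (602 and 737), and fragments without a repeat 2271 (988 and 1283), higher calls first in each pair. The last 2 of these settings tested fewer fragments. Length-decile scaling gave 1164 higher calls and library totals 986. The replicate block gave 1568 calls (973 and 595). Replicate numbers do not pair animals here: deviations of same-numbered libraries correlated at −0.144, 0.145 and −0.372. The cause of the other shifts was not tested. DESeq2, RLE factors, GC-decile scaling, no filter, all fragments fitted and a 2-fold minimum each kept the total within 1.5 times. Of the 55 called among 58 named fragments, no direction reversed under any alternative. Length-decile scaling ended 12 of their calls, the replicate block 14, library totals 8 and GC-decile scaling 2. All groups in a single fit ended 23, leaving out myoblast 2 ended 12, and leaving out muscle 1, muscle 2 or myoblast 3 ended all 55 in edgeR. The island share was higher in muscle by 2.27 percentage points, and by 1.53 to 3.10 without single libraries. The number of detected fragments differed by −670 (muscle minus myoblasts), and by −1549 to −95 without single libraries. Depth limits fragments with few reads: 34629 of 49684 were not tested, and a fragment with 0 reads in a group is not shown to be unmethylated.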

Other observations

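With TMM scaling, the density of CpG pairs in a fragment did not order the differences as the island class did. In the tenth of tested fragments with the highest density, 3.74 to 11.11 CpG per 100 bp, 167 were higher and 112 lower in muscle of 1506, with a median log2 fold change of −0.11. In the tenth with the lowest density, at most 0.57 CpG per 100 bp, 267 were higher and 145 lower of 1506, with a median of 0.24. Island fragments, in contrast, had a median of 2.11. Young L1 elements of the L1Md type, whose tested fragments had a median length of 156 bp, had a median of −0.57. Among the shortest fragments, under 100 bp 96 were higher and 0 lower of 208 with edgeR, and the length-scaled fit called 39 higher and 8 lower of them.

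Retrovirus classes are described here by the share of fragments called lower in muscle. Of the tested fragments 26.8% of ERV1, 20.3% of ERVK other than IAP, 11.7% of IAP, 14.7% of MaLR and 12.3% of ERVL were lower, beside 13% of all tested fragments. These shares are with TMM scaling and not from the length-scaled fit. No difference between these classes was tested. In the C57BL/6J muscle library alone against the myoblasts, the medians were −0.56 for ERV1, −0.32 for ERVK other than IAP and −0.12 for IAP.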
